A study of Arabidopsis thaliana with 141 samples.

Results

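The genes described here are the neighbours of EHD1 on the upper arm of Arabidopsis thaliana chromosome 3, followed in the line that the labels call impk4. They are all loci numbered from AT3G19500 to AT3G21600, except 4 loci that the rule leaves out. The stretch runs from 6759016 to 7608477 on chromosome 3 in the TAIR10.1 annotation, or 849 kb. It holds 240 of the 32678 loci in the count files of the flg22 time course and of seedling sets B1 to B3, and 250 of the 37336 loci in those of set B4 and the adult shoots. In all, 253 loci are listed in at least 1 kind of file and 237 in both, and 232 of the 253 are annotated as protein coding. These genes were chosen by the measured values themselves, because EHD1 and ATM1 had stood out in the comparison of impk4 with wild type (WT) and of adult impk4 with mpk4. Values of those comparisons are therefore given as a description and tested for nothing. Comparisons that did not choose the genes are tested: impk36 with WT, each stimulus in WT, and the inhibitor against mock in adult plants. The comparisons of impk36 with WT and of stimuli in WT share WT libraries with the one that chose the genes. They are thus not fully independent of that choice.

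Messenger RNA was sequenced from 141 libraries in 49 groups. In sets B1 to B4, 7-d-old WT, impk36 and impk4 seedlings, 8 pooled per RNA, stood for 15 min in 10 uM 3MBiP, a kinase inhibitor. WT of B1 also had a 0.1% DMSO group. They then received no stimulus or, in B1, 20 uM abscisic acid (ABA), 50 uM methyl jasmonate (MeJA) or the plant danger peptide pep3 at 100 nM. In B2 they received 2 nM flg22, a peptide of bacterial flagellin, for 30 min or 1 h, or wounding by forceps, in B3 UVB (40 W in the labels) and in B4 10 mM H2O2. The protocol gives 1 h for every stimulus, whereas the names of 3 flg22 groups of B2 give 30 min; the names are followed here, so the length of that treatment is uncertain. The unstimulated groups of impk4 and impk36 are in B1 and B2 only. The adult set held shoots of 4-week-old impk4 plants taken untreated at 0 h, or 3, 6, 12 and 24 h after a spray with 100 uM 3MBiP or 1% DMSO (mock), and untreated shoots of mpk4. Groups of B1 to B4 and of the adult set have 3 libraries each, and those of the time course have 2. The time course was of 7-d-old WT seedlings with 100 nM flg22 for 5 to 60 min, and its 0 min group had water in place of flg22. All seedling comparisons of impk4 or impk36 with WT were made with 3MBiP on every plant. The labels do not say how the impk4 and impk36 lines were made, from how many transformants they came, or at which hour mpk4 was harvested. The adult set has no WT group.

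EHD1 encodes a protein with an Eps15 homology domain, a module of proteins that shape membranes during endocytosis, the uptake of plasma membrane and receptors into the cell. Plant immune receptors such as the flg22 receptor are taken up by this route. ATM1 encodes a class VIII myosin, a motor that moves along actin and has been placed at the plasma membrane, at plasmodesmata and on endosomes. MPK4, whose altered form gives impk4 its name, is a mitogen-activated protein kinase of immune signalling and lies on another chromosome. No sequence is shown, since the values concern messenger levels over whole genes.

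Each library held between 13.9 and 40.4 M reads that fell in annotated loci. Levels are in CPM, that is, counts scaled to library size (TMM) within a set. Values of different sets were normalised apart and are not tested against each other. A gene was called changed when its adjusted p was under 0.05 (edgeR quasi-likelihood F test, Benjamini-Hochberg over all genes tested in that comparison), and ± after a log2 fold change gives its standard error. Of the 253 loci, 194 passed the filter on low counts in at least 1 of the 5 sets fitted here and 59 in none. A locus can pass through the group where it is high. MPK4, the check of the line, stood at 1496, 1456 and 1536 CPM in unstimulated impk4 seedlings of B1 and at 61.4, 60.9 and 62.5 CPM in WT. In adult mpk4 it was at 21.7, 24.9 and 20.8 CPM. The leaf gene RBCS1A was at 4118 CPM or more in every library. The leaf genes CAB2 and LHCB2.1 fell much lower in some libraries. In shoots they ran from 30.7 to 7413 and from 5.25 to 5445 CPM. In seedlings they ran from 92.6 to 4043 and from 14.4 to 1751 CPM. In shoots, the root hair genes EXPA7, RHD6 and SHV2 were at 1.54 CPM or less, while the root genes SCR and PYK10 were present (27.1 to 47.0 and 0.10 to 414 CPM). In bulk samples such as these, fewer cells of a type and less RNA per cell cannot be told apart.

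EHD1 (AT3G20290, 7074764 to 7079014, minus strand) was nearly silent in every impk4 seedling library. Unstimulated impk4 seedlings of B1 had 1.62, 1.89 and 1.52 CPM, against 63.9, 60.7 and 63.5 CPM in WT. Those of B2 had 1.12, 1.28 and 1.20 CPM, against 57.9 ± 2.1 CPM in WT (SD, n = 3). Over all 30 impk4 seedling libraries EHD1 ranged from 1.05 to 2.83 CPM, with a median of 1.65. Over the 81 WT and impk36 seedling libraries it ranged from 48.1 to 73.4 CPM, with a median of 60.3, so the lines did not overlap. The impk4 level was 2.07 to 3.65% of that of WT in the same treatment. On the log2 scale the difference ran from -5.59 ± 0.09 without stimulus in B2 to -4.76 ± 0.09 with UVB. The residue was made of 102 to 184 reads per group of 3 libraries, so it lay well above 0 reads. Among all genes tested, EHD1 had the lowest log2 fold change of all in 3 of the 10 comparisons, without stimulus in B1 and B2 and with ABA.

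In adult shoots the same gene was low in impk4 and at a seedling-like level in mpk4. Untreated impk4 had 2.70, 2.49 and 1.77 CPM and mpk4 had 56.7, 59.4 and 58.2 CPM, a difference of -4.64 ± 0.18. Against the mock groups at 3, 6, 12 and 24 h the difference from mpk4 was -5.10 ± 0.19, -5.46 ± 0.20, -5.29 ± 0.19 and -4.89 ± 0.19. Mock groups at 3, 6 and 12 h were set against mpk4 after the clock genes described further on had been seen. EHD1 in mpk4 thus lay within the numbers seen in WT seedlings, which were normalised apart.

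ATM1 (AT3G19960, 6948774 to 6957726, plus strand) lies 117 kb from EHD1 and was lower in impk4 in every comparison with WT or mpk4. In unstimulated B1 seedlings it was at 39.2, 35.2 and 39.1 CPM in impk4 and at 71.0, 76.6 and 78.8 CPM in WT. Over all impk4 seedling libraries it ranged from 27.2 to 40.9 CPM, and over WT and impk36 libraries from 46.1 to 84.0 CPM, again without overlap. The impk4 level was 44.0 to 59.0% of that of WT, or -1.18 ± 0.05 with H2O2 to -0.76 ± 0.06 without stimulus in B2. In adults impk4 at 0 h had 34.7, 26.1 and 29.1 CPM and mpk4 74.7, 86.4 and 80.1 CPM, a difference of -1.42 ± 0.09. That size moved with the hour of the impk4 control, from -0.63 ± 0.08 at 3 h to -1.61 ± 0.09 at 24 h, since ATM1 in mock plants ran from 22.0 to 53.0 CPM.

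**Figure D1:**
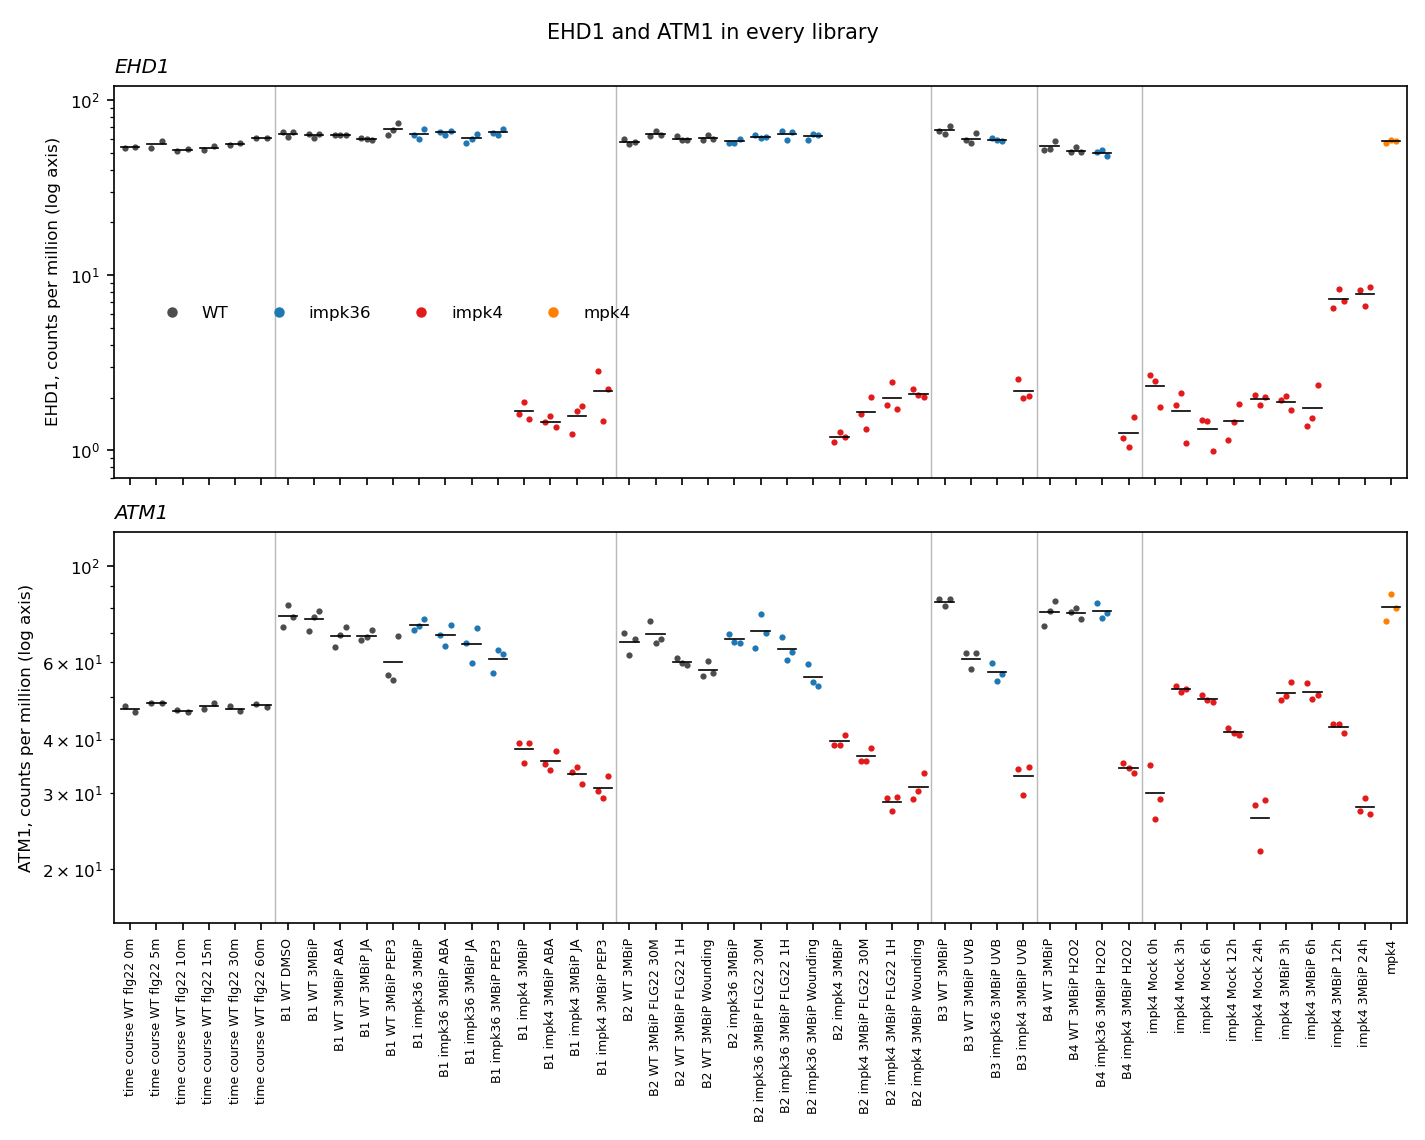
Level of EHD1 (top) and ATM1 (bottom) in CPM on a log axis, by group in the order of the labels. Dots are libraries coloured by line, bars are group means, and vertical lines part the sets, which were normalised apart. EHD1 of impk4 seedlings lies between 1.05 and 2.83 CPM and that of WT and impk36 seedlings between 48.1 and 73.4 CPM.

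EHD1 and ATM1 were called lower in impk4 than in WT in 10 of 10 seedling comparisons. Over the 20253 genes tested in all of them, 4 were lower in every comparison and 3 higher. The other lower genes, MEE29 and PLC1, lie on other chromosomes. The higher ones, all outside the stretch, were MPK4 (AT4G01370), AT4G01390, which is near MPK4 in locus number, and AT5G26270. AT4G01380, also near MPK4 in number, was not tested with H2O2. It was called higher in every comparison that tested it, by 2.76 to 5.31. Of the 193 neighbourhood genes tested in at least 1 of these comparisons, 2 were called lower in all and 0 higher in all. Another 102 were never called (88 of the 179 tested in all 10). The share of all genes never called was not computed, so nothing is read from that count.

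Counts of neighbourhood genes called in impk4 against WT are given beside the share called over all genes. Without stimulus in B1, 2 of 186 tested were called, with 0.0801% called over all genes. With ABA 2 of 186 were called (0.259% over all genes), with MeJA 2 of 186 (0.113%) and with pep3 11 of 186 (5.73%). In B2, 26 of 184 were called without stimulus (16.6% over all genes), 54 of 184 with flg22 for 30 min (25.6%), 67 of 184 with flg22 for 1 h (38.2%) and 6 of 184 with wounding (2.41%). With UVB 4 of 185 were called (0.696%) and with H2O2 2 of 186 (1.19%). Where 2 were called, these were EHD1 and ATM1. Nothing is read from these counts, since the comparison helped to choose the stretch. In B1 without stimulus 0 of the 184 tested loci below the stretch and 0 of the 162 above it were called.

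The genes on either side of EHD1 differed from WT far less than EHD1 did in seedlings, though several were called in some comparisons. AT3G20280, annotated as a RING/FYVE/PHD zinc finger protein, lies 66 bases from it. It stood at 11.0, 11.5 and 12.2 CPM in unstimulated impk4 of B1 and at 11.8, 12.3 and 13.1 CPM in WT. Its difference ran from -0.35 to -0.04 over the 10 comparisons, below 0 in each and called in 3. AT3G20300, annotated as a ligand-gated ion channel protein, begins 477 bases on the other side, upstream of EHD1. It had 4.59, 6.08 and 4.76 CPM in impk4 and 5.53, 4.98 and 6.04 CPM in WT, was never called, and ran from -0.25 to 0.39. Further out, ERF7, an ethylene response factor, ran from -0.30 to -0.04 and was called lower in 2. The chloroplast lipid transport gene ABCI15 ran from -0.05 to 0.14, and PYRB, of pyrimidine synthesis, from -0.09 to 0.10. ABCI15 was called higher in 1 and PYRB in none. On the ATM1 side, AT3G20270 ran from -0.26 to 0.30, AT3G20260 from -0.08 to 0.18, the Pumilio gene PUM5 from -0.48 to 0.08 and AT3G20240 from -0.11 to 0.12. AT3G20270 was called higher in 1 and PUM5 lower in 2, while AT3G20260 and AT3G20240 were never called. AT3G20340 was the most variable of these neighbours (-0.45 to 0.89) and was called higher in 3. Beside ATM1 itself, AT3G19950 ran from -0.08 to 0.08 and AT3G19970 from -0.89 to 0.03. AT3G19950 was never called and AT3G19970 was called lower in 2.

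Between ATM1 and EHD1 lie 38 member loci, of which 28 to 30 were tested in seedlings. Their median difference lay between -0.09 and -0.02 in all 10 comparisons. In 7 comparisons 0 of them were called, with 0.0801 to 5.73% called over all genes. In B2, 4 of 28 were called without stimulus (16.6% over all genes). With flg22, 6 of 28 were called at 30 min (25.6%) and 10 of 28 at 1 h (38.2%). These counts lie near the shares over all genes, and nothing about this interval is read from them. In B1 without stimulus the median log2 fold change was -0.02 over the 186 neighbourhood genes tested and -0.01 over all genes. The first and last genes of the stretch, AT3G19500 and AT3G21600, ran from -0.38 to 0.74 and from -0.30 to 0.08 and were never called.

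**Figure D2:**
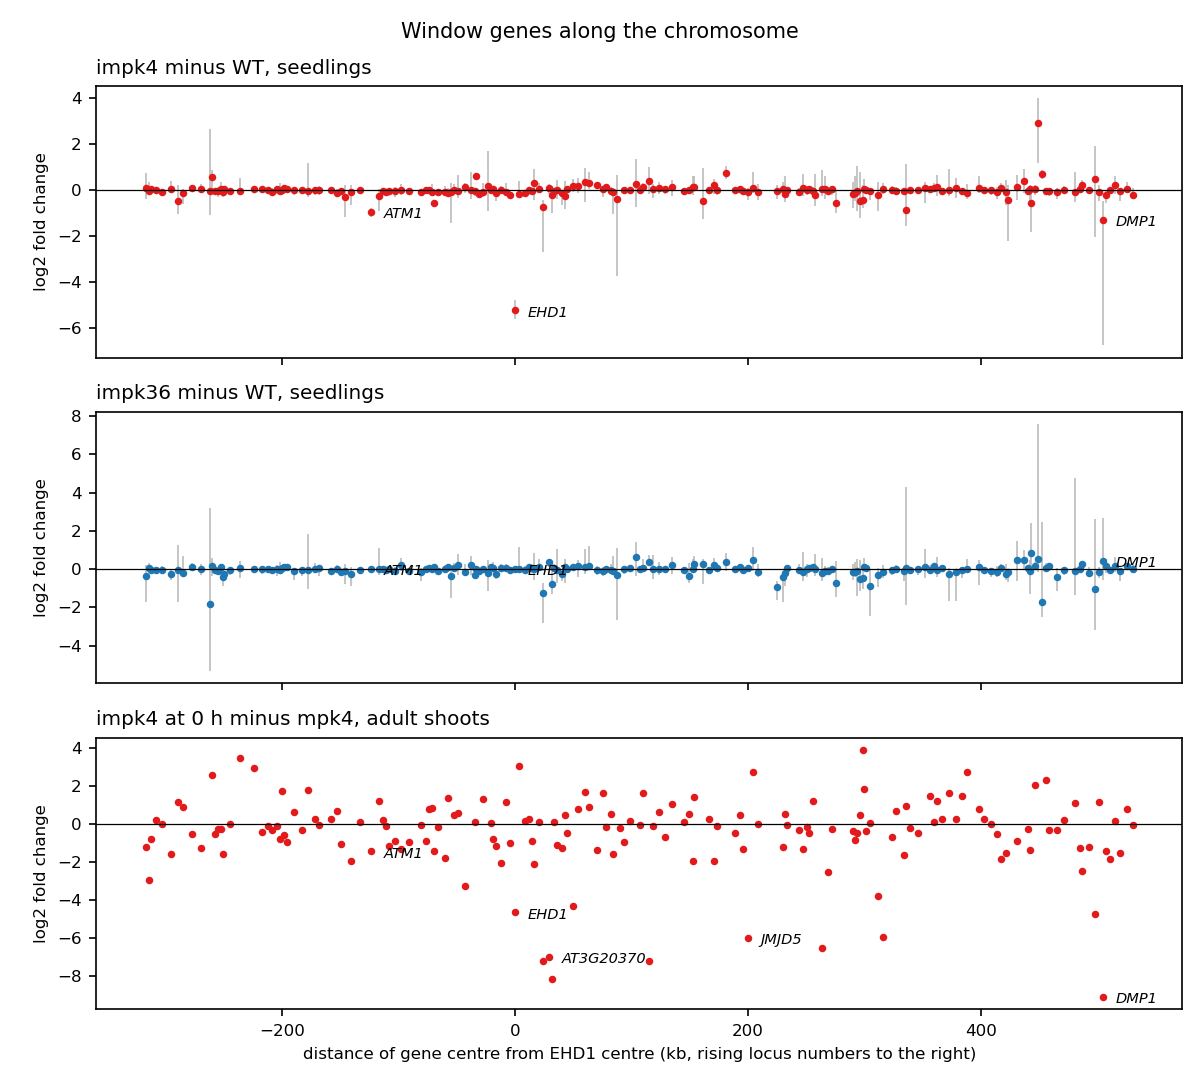
Log2 fold change of each tested neighbourhood gene against the distance of its centre from that of EHD1 in kb. Dots are the median over the comparisons of that pair of lines and grey bars run from the lowest to the highest; the bottom panel has 1 comparison. EHD1 stands alone at a median of -5.23 in impk4 seedlings, ATM1 lies at -0.96, and in impk36 both lie at 0.01.

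At the far end of the stretch, DMP1 (AT3G21520) differed more than EHD1 did after flg22, and less in the other comparisons. It is a membrane protein gene known for its rise in senescing leaves. Its annotated span overlaps that of AT3G21530, and the counts are not stated to use strand. In WT, DMP1 was at 0.42, 0.27 and 0.24 CPM without stimulus in B2 and at 107.5, 88.2 and 98.9 CPM after 1 h of flg22. In impk4 the same hour of flg22 left it at 0.59, 1.32 and 1.51 CPM, and in impk36 it rose to 437, 403 and 416 CPM. After 30 min it was at 89.1, 68.2 and 75.6 CPM in WT, 70.9, 74.4 and 70.1 CPM in impk36 and 0.77, 0.58 and 0.78 CPM in impk4. The 3 lines did not overlap at 1 h, while at 30 min WT and impk36 overlapped and impk4 lay below both. The impk4 difference from WT was -6.74 ± 0.14 at 30 min and -6.37 ± 0.14 at 1 h, and DMP1 was below WT in all 10 comparisons and called in 5. The excess in impk36 was 2.09 ± 0.08 at 1 h (edgeR adjusted p = 1.5e-21). With pep3 DMP1 was at 4.24, 4.60 and 4.17 CPM in WT, at 23.9, 30.3 and 29.6 CPM in impk36 and at 0.85, 0.66 and 1.21 CPM in impk4.

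BBX32, a B-box transcription regulator of light signalling, differed between the lines in part alike. Its span overlaps that of AT3G21140. It was at 33.0, 26.6 and 31.3 CPM in WT after 30 min, from at most 0.14 CPM without stimulus. At 1 h it was down to 1.72, 1.72 and 2.54 CPM in WT, while impk36 held 46.8, 37.9 and 40.8 CPM and impk4 0.47, 1.03 and 0.65 CPM. The impk36 difference from WT was 0.08 ± 0.11 at 30 min, which was not called, and 4.31 ± 0.16 at 1 h (edgeR adjusted p = 4.1e-22). In impk4 it was -1.28 ± 0.12 and -1.55 ± 0.30.

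EHD1 and ATM1 did not differ between impk36 and WT in any comparison. For EHD1 the difference ran from -0.05 to 0.09, and for ATM1 from -0.11 to 0.10, with 0 of 10 called for either. Against impk36 in place of WT, impk4 was lower by about the same amount, -5.59 to -4.73 for EHD1 and -1.20 to -0.78 for ATM1. These values share the impk4 libraries with the ones above.

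In impk36, neighbourhood genes were called about as often as other genes. In B1, 6 of 186 were called without stimulus (3.56% over all genes), 8 of 186 with ABA (3.98%), 1 of 186 with MeJA (1.8%) and 57 of 186 with pep3 (34.1%). Replicate 3 of impk36 with pep3 had 42.4% alignments that were not unique, against 5.70 and 5.73% in replicates 1 and 2. In B2, 49 of 184 were called without stimulus (31.4%), 64 of 184 with flg22 for 30 min (36%), 85 of 184 with flg22 for 1 h (47.1%) and 74 of 184 with wounding (41.3%). Alignments that were not unique came to 13.4 to 16.5% in the impk36 libraries of B2. They came to 6.06 to 7.55% in impk4 and 6.47 to 12.8% in WT of that set. The part of this difference in the impk36 values of B2 was not tested. With UVB 12 of 185 were called (9.73%) and with H2O2 18 of 186 (11%). NADK1, which makes NADP from NAD, and CPK9, a calcium-dependent protein kinase, were each lower in 6 of 10 comparisons, those with pep3, flg22, wounding, UVB and H2O2. After 1 h of flg22 NADK1 had 633, 486 and 566 CPM in WT, 109, 101 and 104 CPM in impk36 and 547, 626 and 618 CPM in impk4. The impk36 libraries lay below all the others, by -2.42 ± 0.12 (edgeR adjusted p = 3.2e-16). NADK1 overlaps AT3G21060 in the annotation.

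PLT1, a transcription factor of the root stem cell niche, was lower in impk36 in 6 of 10 comparisons and below WT in all of them. In unstimulated B2 seedlings it was at 0.58, 1.21 and 0.78 CPM, against 2.04, 2.41 and 2.99 CPM in WT (-1.60 ± 0.19, edgeR adjusted p = 7.7e-08). In impk4 it ran from -0.37 to 0.23 and was never called. AT3G20370, annotated as a TRAF-like protein, was called higher in impk36 in 8 of 10 comparisons, all but the unstimulated one and pep3 in B1. With wounding it was at 138 ± 8.7 CPM in impk36 and 104 ± 4.1 CPM in WT (mean ± SD, n = 3 each; log2 difference 0.41 ± 0.08, edgeR adjusted p = 0.00012). The summed level of the 5 root markers, nearly all of it PYK10, moved the same way there. It was 3006 to 3362 CPM in WT and 3504 to 3693 CPM in impk36, and its part in the result was not tested. GRP5, a glycine-rich protein gene, was higher in impk36 in the 4 comparisons of B2 (0.85 to 1.21) and was not called in the other 6. B2 is the set where impk36 libraries had more alignments that were not unique, and line and library cannot be told apart there.

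In WT, EHD1 and ATM1 moved little with the stimuli themselves. EHD1 was called after 1 of the 8 stimuli, flg22 at 30 min, where it rose by 0.14 ± 0.05 (edgeR adjusted p = 0.031). That call was lost without replicate 2, without replicate 3 or with no filter on low counts. In the time course, which was not tested here, EHD1 was at 53.0 and 54.1 CPM at 0 min and at 60.7 and 60.5 CPM at 60 min. ATM1 was lower after pep3 (-0.33 ± 0.07), flg22 for 1 h (-0.15 ± 0.06), wounding (-0.22 ± 0.06) and UVB (-0.44 ± 0.06). With UVB it was at 61.3 ± 2.9 CPM, against 82.9 ± 1.7 CPM without (SD, n = 3 each; edgeR adjusted p = 6.0e-05). The call at 1 h of flg22 was lost without replicate 1 or 3 and with DESeq2 or its size factors, and that after wounding without replicate 1 or 3.

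Among neighbourhood genes, 52 of 186 were called with ABA (30.4% over all genes), 63 of 186 with MeJA (32.2%), 112 of 186 with pep3 (62.5%), 70 of 184 with flg22 for 30 min (43.2%), 102 of 184 with flg22 for 1 h (60.4%), 96 of 184 with wounding (53.6%), 72 of 185 with UVB (40.8%) and 73 of 186 with H2O2 (39.9%). In the immunity and signalling group, NADK1 rose from 30.9 ± 2.1 to 561 ± 74 CPM after 1 h of flg22 (SD, n = 3 each; 4.18 ± 0.13). NDR1, needed for resistance through one class of immune receptors, rose from 3.34 ± 0.61 to 35.3 ± 3.9 CPM at 30 min (3.39 ± 0.11). It also rose with pep3, wounding, UVB and H2O2 and fell with MeJA by 0.84. CPK9 rose by 2.24 ± 0.06 after 1 h of flg22, and ERF7 rose after 7 of the 8 stimuli, by 0.21 to 0.93, MeJA being the exception. AHP1, a phosphotransfer protein of cytokinin signalling, fell with flg22 at 30 min and with H2O2.

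The sugar transporter gene STP4 rose after pep3 from 76.5 ± 8.3 to 557 ± 47 CPM (SD, n = 3 each) and fell with ABA by 0.67 and with MeJA by 0.81. VPS9A, the activator of RAB5 GTPases on endosomes, rose with pep3 (0.63 ± 0.07) and with flg22 at 30 min (0.26 ± 0.05) and 1 h (0.42 ± 0.05). Of the chosen endocytosis genes outside the stretch, 17 were tested, and 16 were called higher and 1 lower with pep3, where 32.2% of all genes were called higher, with a median of 0.33 against -0.01 over all genes. After 1 h of flg22 15 of the 17 were called higher, against 29.8% of all genes, with a median of 0.30. After wounding 14 of the 17 were called higher, against 28.7% of all genes, with a median of 0.19. The list was described by these counts alone. EHD1 itself was not called in those 3 comparisons, at 0.12 ± 0.07, 0.05 ± 0.05 and 0.06 ± 0.05.

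In the metabolic group, 4CL5, of phenylpropanoid synthesis, rose with wounding from 9.87, 11.1 and 9.33 CPM to 227, 210 and 224 CPM (4.46 ± 0.15). It also rose with pep3 (3.02 ± 0.09), with MeJA (from 8.23 ± 0.45 to 50.1 ± 4.0 CPM) and with flg22 at 1 h (2.42 ± 0.15), and it overlaps a neighbouring gene. The cytochrome P450 gene CYP705A30 rose with MeJA from 10.4 ± 0.50 to 88.4 ± 8.8 CPM (SD, n = 3 each) and with wounding, and fell with ABA, pep3, flg22 and UVB. DWF1, of brassinosteroid synthesis, fell with pep3 by 0.59, with ABA and with flg22 at 1 h, and rose with MeJA. Among genes that fell, AT3G19850, annotated with the phototropic NPH3 family, went from 58.9 ± 3.7 to 4.12 ± 1.1 CPM after 1 h of flg22 (SD, n = 3 each; -3.79 ± 0.15). UGT84A2, a glucosyltransferase of sinapate metabolism, fell with H2O2 by 1.25 and with flg22 and wounding, and rose with pep3 and UVB. FIE, a Polycomb subunit, fell with pep3, flg22 at 1 h, wounding and H2O2, by at most 0.29, and DDL, a small RNA factor, was never called. The inhibitor alone, set against DMSO in WT of B1, had 11 of 186 neighbourhood genes called (8.65% over all genes). EHD1 was at -0.04 ± 0.07 and ATM1 at -0.02 ± 0.07 in that comparison, and neither was called. AT3G19850 fell there by 0.63, and LBO1, of strigolactone synthesis, rose by 0.66.

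**Figure D3:**
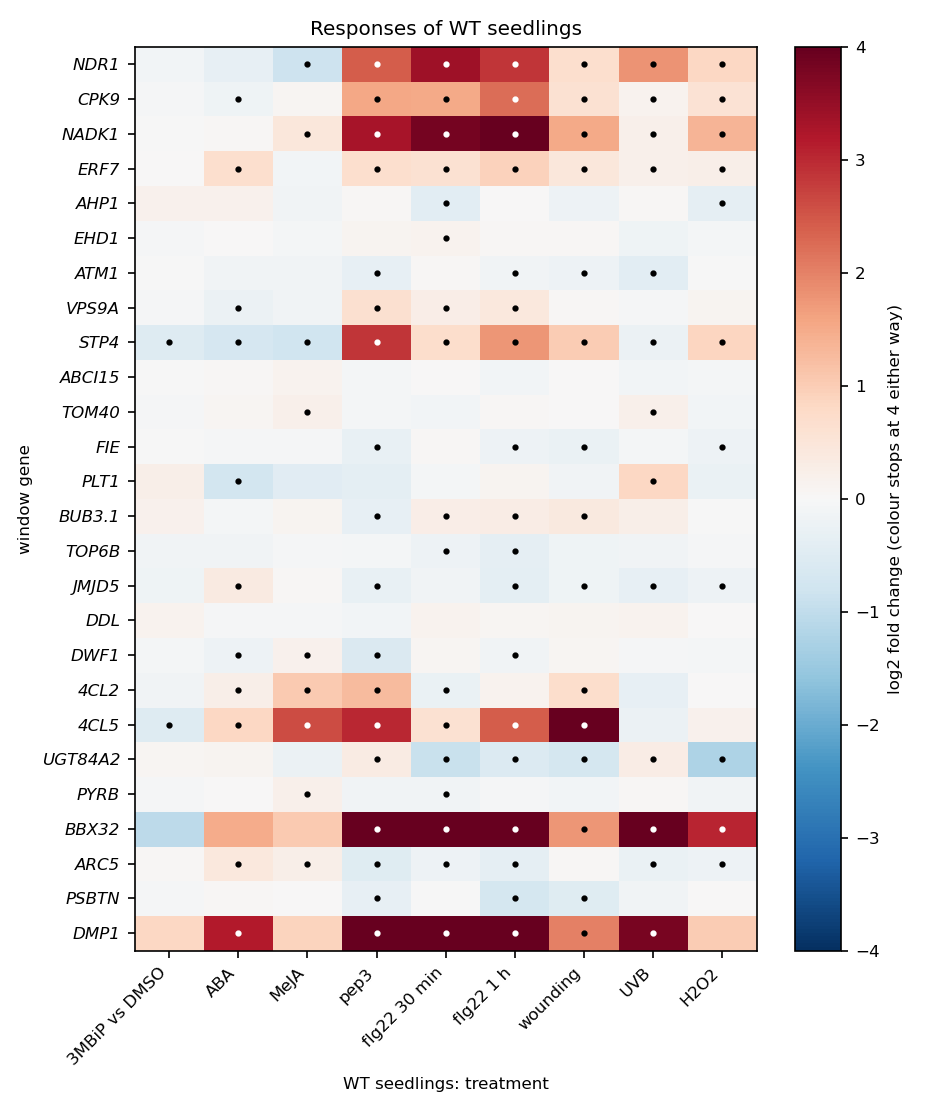
Log2 fold change of genes of the stretch, in rows by role, in WT seedlings for each treatment, in columns. The first column is 3MBiP against DMSO and the others a stimulus against none in the same set; dots mark an adjusted p under 0.05. EHD1 is nearly white throughout, while NADK1, NDR1, DMP1 and BBX32 are dark red with flg22 and pep3.

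In adult impk4 EHD1 rose with the inhibitor at 12 and 24 h, to a level below that of mpk4. At 12 h EHD1 was at 6.52, 8.34 and 7.15 CPM with 3MBiP and at 1.15, 1.45 and 1.84 CPM with mock. At 24 h it was at 8.24, 6.66 and 8.57 CPM with 3MBiP and at 2.06, 1.82 and 2.01 CPM with mock. The treated libraries lay above all mock libraries at both times and below all 3 mpk4 libraries. The rise was 2.30 ± 0.19 at 12 h (edgeR adjusted p = 3.4e-09) and 2.00 ± 0.19 at 24 h (edgeR adjusted p = 2.5e-08). At 3 h it was 0.16 ± 0.23 and at 6 h 0.42 ± 0.24, neither called. The effect at 12 h exceeded that at 6 h by 1.89 ± 0.31 (edgeR adjusted p = 0.0012) and that at 24 h exceeded it by 1.58 ± 0.31 (edgeR adjusted p = 0.0019). These 2 differences were chosen after the values had been seen, and each lost its call without replicate 1 or 2. ATM1 did not move with the inhibitor, at -0.03, 0.05, 0.04 and 0.08 over the 4 times, each with a standard error of 0.08 or 0.09. MPK4 was at 1639, 1633 and 1795 CPM with 3MBiP at 12 h, against 1862, 1862 and 1924 CPM with mock.

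The root marker PYK10 moved in the same libraries. Of the 5 root markers, PYK10, a glucosidase of roots, was at 364, 356 and 317 CPM with 3MBiP at 12 h and at 33.0, 30.9 and 39.0 CPM with mock. The summed level of all 5 was 357 to 403 CPM with 3MBiP and 72.6 to 82.0 CPM with mock at 12 h. At 24 h it was 383 to 455 against 69.6 to 156 CPM. PYK10 made up most of the sums with 3MBiP. The root hair genes stayed at 1.54 CPM or less, and SCR lay at 27.1 to 47.0 CPM over all shoot libraries. The part of PYK10 in the EHD1 result was not tested. Nor was it tested whether RNA of other tissue or other plants was present in these libraries. mpk4 had a summed level of 201 to 275 CPM.

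The inhibitor called 0 of 172 neighbourhood genes at 3 h (0.279% over all genes; 10 others than EHD1 and ATM1 had an unadjusted p under 0.05), 6 of 172 at 6 h (6.08%), 31 of 172 at 12 h (14.2%) and 40 of 172 at 24 h (25.2%). AT3G20370 also rose at 12 and 24 h. It was at 12.4, 12.5 and 10.7 CPM with 3MBiP at 12 h and at 1.03, 1.28 and 1.88 CPM with mock, a rise of 3.08 ± 0.40 (edgeR adjusted p = 1.2e-05). At 24 h its rise was 2.73 ± 0.39, and at 6 h its value was -0.94 ± 0.52, which was not called. Its treated level at 12 h exceeded that of mpk4, 8.03, 6.29 and 7.02 CPM. GRP5 rose from 8.15 ± 0.78 to 18.5 ± 0.78 CPM at 12 h (SD, n = 3 each; 1.18 ± 0.19). PUM5 rose at 6, 12 and 24 h, by 0.57 ± 0.10, 0.36 ± 0.09 and 0.84 ± 0.10. NDR1 was called at 24 h alone, at 13.7, 8.92 and 12.1 CPM against 6.92, 4.08 and 2.70 CPM (1.35 ± 0.32, edgeR adjusted p = 0.0032). AT3G20280, the gene 66 bases from EHD1, fell at 12 h by 0.50, from 8.44 ± 0.31 to 5.95 ± 0.24 CPM (SD, n = 3 each). AT3G20300, on the other side, rose by 0.65 ± 0.15 at that time.

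**Figure D4:**
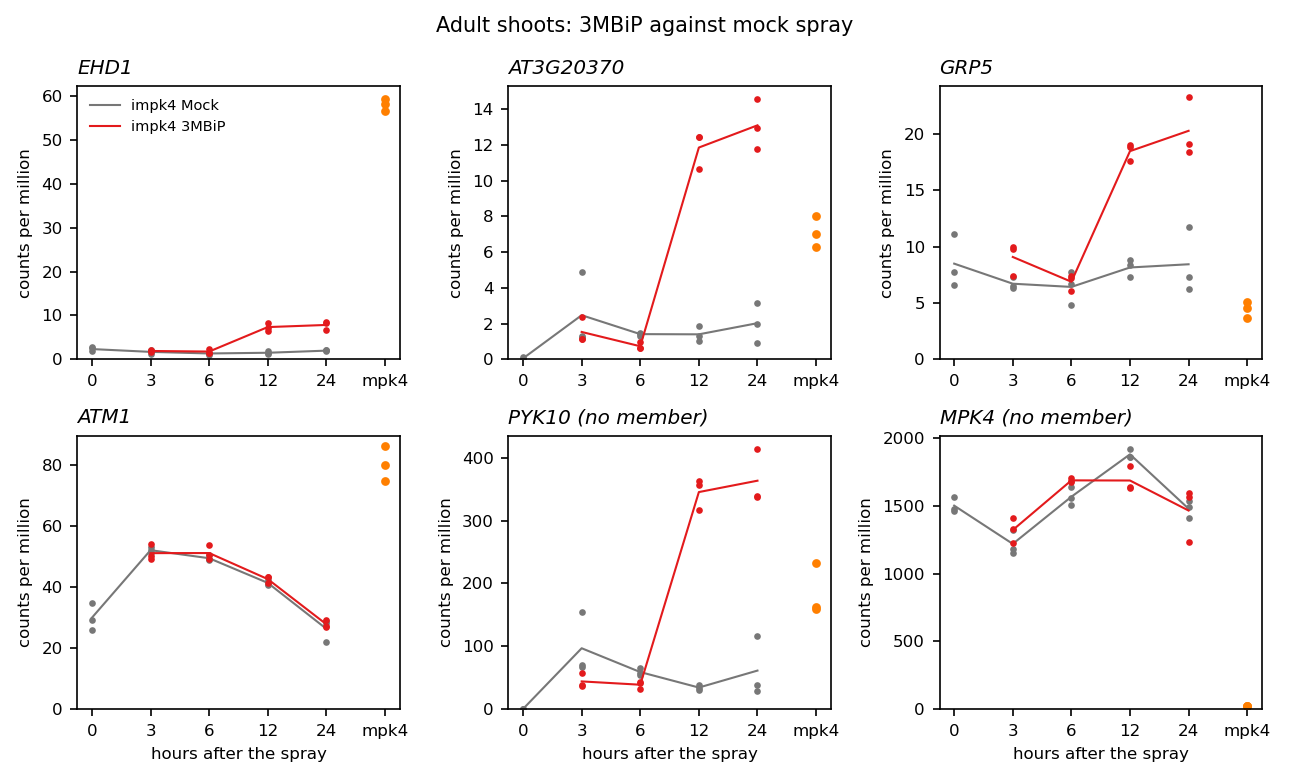
Level in CPM in adult shoots of impk4 by hours after the spray, with mock in grey and 3MBiP in red, and in mpk4 in orange. Dots are libraries, lines join group means, and each panel has its own axis from 0; PYK10 and MPK4 lie outside the stretch. EHD1 with 3MBiP reaches 6.52 to 8.57 CPM at 12 and 24 h, and AT3G20370 and PYK10 rise at the same times.

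Set against mpk4, untreated adult impk4 differed over most of the genome, and its neighbourhood genes with it. Of 172 tested, 76 were lower and 54 higher (78.2% called over all genes), and nothing is read from that count. The median log2 fold change was -0.16 over them and -0.19 over all genes. DMP1 had the lowest value, at 0.03 ± 0.06 CPM in impk4 and 21.2 ± 5.7 CPM in mpk4 (SD, n = 3 each). The 3 TRAF-like genes whose centres lie 23.8 to 32.1 kb from that of EHD1 were low together. AT3G20370 was at 0.05 against 7.11 CPM on average, and AT3G20360 and AT3G20380 were at 0 reads in impk4. AT3G20360 and AT3G20380 overlap other genes. Higher in impk4 were AT3G20300 (47.1 ± 2.6 against 5.59 ± 0.88 CPM), ARC5, the dynamin-like protein of chloroplast division (216 ± 28 against 27.7 ± 1.1 CPM), and AT3G20820, an annotated leucine-rich repeat protein (271 ± 40 against 40.9 ± 4.6 CPM; SD, n = 3 each). In this comparison at 0 h the neighbours EHD1 and AT3G20300 differed in opposite directions, by -4.64 ± 0.18 and 3.07 ± 0.17. Harvest hour and genotype cannot be told apart at 0 h, as described next.

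JMJD5, a histone demethylase gene tied to the circadian clock, was at 2.95, 1.92 and 1.77 CPM in impk4 at 0 h and at 136, 143 and 139 CPM in mpk4 (-5.97 ± 0.13). In the mock group at 6 h it was at 157, 153 and 160 CPM, and against that group the sign turned, to 0.17 ± 0.09. The clock genes moved with it. TOC1, which peaks in the evening, was at 9.42, 20.2 and 10.4 CPM in impk4 at 0 h, at 225, 220 and 227 CPM in the 6 h mock group and at 267, 299 and 290 CPM in mpk4. The morning gene LHY was at 133, 152 and 144 CPM at 0 h, at 0.81 CPM or less at 6 h and at 0.41 CPM or less in mpk4. The labels give no harvest hour for mpk4, and the hour and the genotype cannot be told apart in the comparison at 0 h. EHD1 and ATM1 were lower in impk4 than in mpk4 whichever of the 5 untreated or mock groups was used.

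The response of impk4 to a stimulus, minus that of WT, was computed where both lines had an unstimulated group. These values are built from the groups that chose the stretch and are a description. For EHD1 the residue in impk4 changed with 1 h of flg22 by 0.66 ± 0.17 and with wounding by 0.74 ± 0.16 more than in WT. In CPM, impk4 went from 1.12, 1.28 and 1.20 to 1.82, 2.47 and 1.71 with flg22 and to 2.23, 2.06 and 2.01 with wounding. For ATM1 the value with 1 h of flg22 was -0.31 ± 0.09. Over the stretch, 0 of 186 genes were called with ABA (0% over all genes), 0 of 186 with MeJA (0.00471%), 3 of 186 with pep3 (0.702%), 9 of 184 with flg22 for 30 min (3.21%), 19 of 184 with flg22 for 1 h (10.5%) and 17 of 184 with wounding (8.01%). Among the genes other than EHD1 and ATM1, 11 with ABA and 6 with MeJA had an unadjusted p under 0.05.

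Relatives of EHD1 and ATM1 elsewhere in the genome were not lower in impk4 seedlings in every comparison. EHD2, the other Arabidopsis EHD gene, ran from -0.01 to 0.36 in impk4 against WT and was higher without stimulus and with flg22 in B2. ATM2, a class VIII myosin, ran from -0.16 to 0.43. In B1 without stimulus 0 of 17 endocytosis genes and 0 of 15 myosins outside the stretch were called, with medians of 0.03 and 0.09. With 0.0801% called over all genes, these counts say nothing particular to the relatives. After 1 h of flg22 6 of 17 endocytosis genes were lower and 2 higher, and 5 of 16 myosins were lower and 2 higher, with 38.2% called over all genes.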

How the data were processed

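Per the submitters' processing notes, reads were aligned with TopHat to TAIR10 and counted per locus with HTSeq; versions, settings and strand are not given in the sources used here. The authors deposited raw whole-number counts, 1 file per library, made per the labels' protocols with an Illumina TruSeq RNA v2 kit. Loci were joined to the TAIR10.1 annotation, which gave coordinates for 251 of the 253 members and an overlap with another gene for 93 of them, whose reads cannot be told apart without strand. Files of B4 and the adults list more loci than the others and have more ambiguous reads (2.92 to 4.09%, against 0.91 to 1.76%). Alignments that were not unique came to 5.38 to 42.4% and reads in no feature to 0.83 to 2.30%; such rows stayed out of totals and tests. Depth was 13.9 to 40.4 M counts. Reads without molecular identifiers are not independent molecules.

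Each set was fitted alone in edgeR 4.0.16 (R 4.3.3) with 1 mean per group, filterByExpr, TMM and robust quasi-likelihood F tests, two-sided, with Benjamini-Hochberg adjustment over the 20806 to 21543 genes tested. Standard errors are the fold change over the square root of F. The time course was not tested. No label says that replicates came from separate cultures or plants, so p-values measure the spread between these libraries, which may be technical. With 3 libraries against 3 an exact permutation p cannot go below 0.1. The members and all gene lists were chosen with earlier results of these data known. Named genes are EHD1, ATM1, the 5 tested neighbours on each side of EHD1, those called the same way in at least 8 of 10 comparisons, up to 10 per direction in adults, the 3 largest per direction and treatment at 5 CPM or more, and listed role groups; AT3G19950 and AT3G19970 were added after their values were seen. The script was tested on simulated data with 200 changed genes. Alternatives were DESeq2 1.42.0, its size factors, no filter, only the compared groups, a replicate block and leaving out libraries. All 3 same-numbered pairs of libraries correlated above 0.1 in impk4 against WT with UVB (lowest r 0.18). They did so in impk36 against WT with flg22 for 1 h (0.18), and in impk4 against impk36 with ABA (0.13) and UVB (0.12). These comparisons were flagged as paired from the data alone. The values given for them come from fits without pairing, and the replicate block was run only as an alternative.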

Additional observations from a re-analysis of the deposited data

Results flagged for a closer look

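The response of EHD1 in impk4 minus that in WT was 0.66 on the log2 scale with 1 h of flg22 and 0.74 with wounding, and that of ATM1 was -0.31 with 1 h of flg22. These are listed because they passed the threshold for a difference between lines. They are built from groups that chose the genes, so they are a description and no test. The residue of EHD1 in impk4 was 1.12 to 2.47 CPM in the libraries concerned. In adult impk4 the inhibitor effect on EHD1 differed between times, at 12 h from that at 6 h by 1.89 and at 24 h from that at 6 h by 1.58, both contrasts chosen after the values had been seen. The root marker PYK10, most of the summed root markers there, rose in the treated libraries of 12 and 24 h. Its part was not tested.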

How the results depend on the processing

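The rise of EHD1 with the inhibitor at 12 and 24 h kept its direction and its call under every alternative run. For EHD1 and ATM1 in impk4 against WT or mpk4 no alternative changed the direction either, but those values chose the genes, so this is no sign of stability. JMJD5 turned to 0.17 with the 6 h mock group as the control. Counts of neighbourhood genes called moved as follows. With only the compared groups fitted, impk4 against WT had 4 called with pep3 (11 in the report) and 5 with H2O2 (2). With DESeq2, it had 5 with H2O2, impk36 against WT had 2 with MeJA (1) and the adult inhibitor 12 at 6 h (6). With the replicate block, impk36 against WT had 2 with MeJA and 21 with UVB (12); EHD1 with UVB in WT was then called, at -0.16. The block moved no other count by over 1.5 times.

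Leaving out libraries gave these ranges, with the count of the report in brackets. For impk4 against WT, 2 to 5 with ABA (2), 4 to 14 with pep3 (11), 7 to 33 without stimulus in B2 (26), 20 to 52 with flg22 for 30 min (54), 38 to 61 for 1 h (67), 2 to 8 with wounding (6), 2 to 5 with UVB (4) and 2 to 4 with H2O2 (2). For impk36 against WT, 0 to 5 without stimulus in B1 (6), 0 to 4 with ABA (8), 0 to 2 with MeJA (1), 21 to 48 without stimulus in B2 (49), 37 to 53 with flg22 for 30 min (64), 53 to 78 for 1 h (85), 47 to 67 with wounding (74), 4 to 10 with UVB (12) and 5 to 23 with H2O2 (18). For WT stimuli, 33 to 45 with ABA (52), 45 to 63 with flg22 for 30 min (70), 37 to 57 with UVB (72), 41 to 78 with H2O2 (73), and 4 to 7 with 3MBiP (11). For the difference of responses, 0 to 4 with pep3 (3), 5 to 21 with flg22 for 1 h (19) and 0 to 18 with wounding (17). For the adult inhibitor, 0 to 1 at 6 h (6), 12 to 22 at 12 h (31) and 24 to 36 at 24 h (40). Leaving out only replicate 2 of wounded impk4 gave 3 called, and only replicate 3 of WT with H2O2 gave 4. The cause was not tested, though such fits have fewer samples.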

Other observations

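BGLU19 (AT3G21370), a beta-glucosidase gene of the stretch, had a high fitted value in impk4 against WT (a median of 2.93 over the 5 comparisons in which it was tested), but it was never called. Its level was 0.85 CPM or less in every impk4 seedling library. Its call in unstimulated impk36 of B1 (7.58 ± 1.91, edgeR adjusted p = 0.022) rests on a single library with 2.67 CPM, the others having 0 and 0.05 CPM and WT 0. AT3G20360 was below WT in impk4 in all 10 seedling comparisons, by 0.44 to 2.70 on the log2 scale, and was called in 2. GRP5 was above WT in all 10, by 0.06 to 0.79, and was called in 3. Both genes were named after their values were seen.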
